A study of Mus musculus with 96 samples.

Results

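Chromosome 2 was described in KPC1199EGFP, a mouse pancreatic cancer line of C57BL/6 background that carries the green fluorescent protein EGFP. All 358 bins that the genome table places on this chromosome were taken, of 4906 bins in all, in each of 96 libraries. The cells were adherent, at passage 9 and untreated, and their nuclei were stained with the DNA dye DAPI and sorted on DNA content before amplification and whole-genome sequencing. Single nuclei came from the 2N gate (47 nuclei), the 2N+ gate (35 nuclei) and the 4N gate (12 nuclei), and 2 bulk libraries represented the 2N and 2N+ gates. All groups share the same line, passage, growth and lack of treatment. The library numbers in the titles run in blocks by gate, 1 to 48 for 2N, 49 to 84 for 2N+ and 85 to 96 for 4N, bulk libraries included, so any effect of library order cannot be told apart from the gate. The labels do not define where the 2N+ gate lay, and name no second culture, so a gate counts as 1 sample.

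A tumour cell line can gain or lose whole chromosomes when chromosomes are missegregated, and stretches of a chromosome when its DNA breaks and is rejoined. Reads from 1 nucleus, summed over bins, show such differences as levels that change in steps along the chromosome. Mouse chromosome 2 holds many genes with known parts in cancer and in the pancreas. In the order of a gene table of another genome assembly, Bmi1, a subunit of a Polycomb repressor complex, and Ptf1a, a transcription factor of the exocrine pancreas, lie near the start, as genes 74 and 80 of 1782 protein-coding genes. Notch1, a receptor that controls cell fate, is gene 189, Nfe2l2, a regulator of the antioxidant response, is gene 555 and Cd44, a cell adhesion receptor, is gene 912. Foxa2, a transcription factor of endoderm, is gene 1320, Src, a tyrosine kinase, is gene 1497 and Aurka, a mitotic kinase, is gene 1652. That assembly is not the mm9 build of the bins, so no gene was placed in a bin and no copy number belongs to a gene here.

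The chromosome was read in 4 consecutive parts, in mm9 positions counted from 1. The first part ran from 1 to 14885853 (24 bins, 14.9 Mb) and the inner part from 14885854 to 75743670 (124 bins, 60.9 Mb). The middle part ran from 75743671 to 97908370 (43 bins, 22.2 Mb) and the distal part from 97908371 to 181748087 (167 bins, 83.8 Mb). The borders came from an earlier partition of these same values, so that levels change there was used in the choice and is not a result. What is described is how many nuclei of each gate carried each step, in which combination, and beside which other chromosomes.

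The values are linear ratios, with library means near 1, already smoothed into segments, so the read depth is unknown. Copies are the median ratio of a part times the factor, between 1.5 and 6, that brought the autosomal ratios of that nucleus closest to whole numbers. These copies lay within 0.25 of a whole number in 89 of 94 nuclei for the first part, 91 for the inner, 88 for the middle and 93 for the distal part. An SD is over nuclei. Intervals on shares are exact at 95% (Clopper-Pearson) and hold counting error alone, and the gates were not tested against each other. Nuclei that doubled their genome and kept even copy numbers cannot be told from undoubled ones by ratios. In 8 nuclei the autosomal ratios lay on average further than 0.15 from whole numbers, by the root of the mean squared distance, and 6 nuclei had more than 60 changes of value inside chromosomes (2N+ nuclei 22, 24 and 31 and 4N nuclei 7, 9 and 10).

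The inner part was the lowest in each gate. In the 2N gate its copies ranged from 1.05 to 2.96 with a median of 1.99, against 1.94 to 4.01 with a median of 3.01 for the first part. The middle part ranged from 1.94 to 4.04 with a median of 2.97, and the distal part from 2.06 to 3.93 with a median of 2.97. As means, the 4 parts in order were at 2.80 ± 0.635, 2.07 ± 0.340, 2.77 ± 0.622 and 3.05 ± 0.381 copies (SD, n = 47 nuclei). The first and the middle part, which do not touch, had nearly the same mean and spread, while the distal part varied less and seldom fell to 2 copies.

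In the 2N+ gate the inner part ranged from 1.96 to 4.68 copies with a median of 2.85, and the first part from 2.03 to 5.01 with a median of 3.10. The middle part ranged from 2.03 to 4.76 with a median of 3.03, and the distal part from 2.96 to 4.76 with a median of 3.04. The means were 3.35 ± 0.639, 2.58 ± 0.572, 3.25 ± 0.584 and 3.35 ± 0.484 copies (SD, n = 35 nuclei). All 4 means lay above those of the 2N gate, and the ranges of nuclei overlapped for every part.

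**Figure D1:**
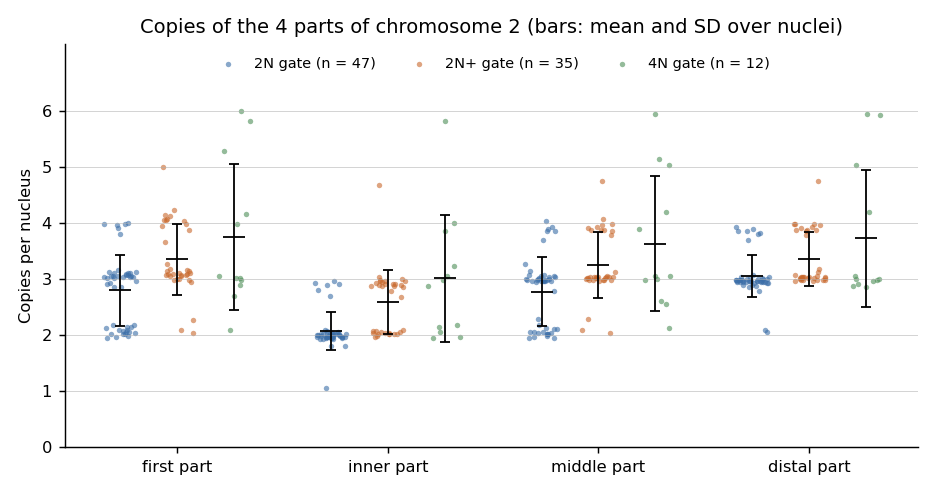
Copies of the first, inner, middle and distal part in each single nucleus, with the mean and SD over the nuclei of a gate as black bars. Points gather near whole numbers, the inner part of the 2N gate sits mostly at 2 copies, and the 4N gate reaches 6.01 copies.

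In whole copies, the inner part reached 3 or more in 6 of 47 2N nuclei (12.8%, with an interval of 4.83 to 25.7%). It did so in 20 of 35 2N+ nuclei (57.1%, 39.4 to 73.7%), so that the intervals lay apart. With 5 2N+ nuclei whose inner part was divided counted as low, it was 15 of 35 (42.9%, 26.3 to 60.6%), still above the 2N interval. The first part reached 3 in 30 of 47 2N nuclei (63.8%, 48.5 to 77.3%) against 32 of 35 2N+ nuclei (91.4%, 76.9 to 98.2%), where the intervals just overlapped. The middle part gave the same counts as the first. The distal part reached 3 in 45 of 47 2N nuclei, against all 35 2N+ nuclei. It reached 4 in 7 of 47 2N nuclei (14.9%, 6.20 to 28.3%) against 12 of 35 2N+ nuclei (34.3%, 19.1 to 52.2%), with overlapping intervals.

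Most nuclei had 3 or more copies at 234 of the 358 bins in the 2N gate, against 45.8% of autosomal bins, and none of these 234 lay in the inner part. In the 2N+ gate it was 309 of 358 bins, 75 of them inner, against 55.6% of autosomal bins, and in the 4N gate 351 of 358 against 53.6%.

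Read bin by bin, the share of nuclei at 3 or more copies had intervals that lay apart, higher in 2N+ than in 2N, at 106 of 358 bins of chromosome 2. Of all 4636 autosomal bins, 10.5% did so. Of the 106 bins, 105 were among the 124 of the inner part and 1 was in the middle part, with none in the first or the distal part. Lower in 2N+ there were 0 bins on chromosome 2 and 0% of autosomal bins. The bins of 1 part share segments and are not independent of each other.

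Taken by their 4 whole copy numbers, the 94 nuclei showed 13 patterns, of which 5 occurred in 2 or more nuclei. These are written below as the copies of the first, inner, middle and distal part. The pattern 3, 2, 3, 3 was the most frequent, in 23 of 47 2N nuclei (48.9%, 34.1 to 63.9%), 12 of 35 2N+ nuclei (34.3%, 19.1 to 52.2%) and 4 of 12 4N nuclei. Among these 4N nuclei, nuclei 1 and 12 had a middle part between whole numbers. The pattern 2, 2, 2, 3 was found in 15 2N nuclei (31.9%, 19.1 to 47.1%), 2 2N+ nuclei (5.71%, 0.70 to 19.2%) and 1 4N nucleus. The pattern 4, 3, 4, 4 was found in 6 2N nuclei (12.8%, 4.83 to 25.7%), 10 2N+ nuclei (28.6%, 14.6 to 46.3%) and 1 4N nucleus. These 3 patterns made up 44 of 47 2N nuclei, and each occurred in every gate. Outside the 2N gate, however, 2, 2, 2, 3 was seen only in 2N+ nuclei 22 and 24 and 4N nucleus 10. All of these had more than 60 changes of value. The 4N nucleus at 4, 3, 4, 4 was nucleus 2. Its autosomal ratios lay 0.206 from whole numbers by the root of the mean squared distance, the furthest of all nuclei.

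The pattern 3, 3, 3, 3 was seen in none of 47 2N nuclei (interval 0 to 7.55%), 8 of 35 2N+ nuclei (22.9%, 10.4 to 40.1%) and 2 of 12 4N nuclei. The intervals of the 2N and 2N+ gates lay apart for this pattern. However, 5 of these 8 2N+ nuclei had low ends of the inner part, described below, that the part median passed over. A chromosome 2 with no step at any border was seen in 3 of 35 2N+ nuclei (8.57%, 1.80 to 23.1%) and 0 of 47 2N nuclei, with overlapping intervals. The intervals also overlapped for each of the other patterns found in 2 or more nuclei. For 2, 2, 2, 3 they did so only just, with 19.1 to 47.1% in 2N and 0.70 to 19.2% in 2N+.

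**Figure D2:**
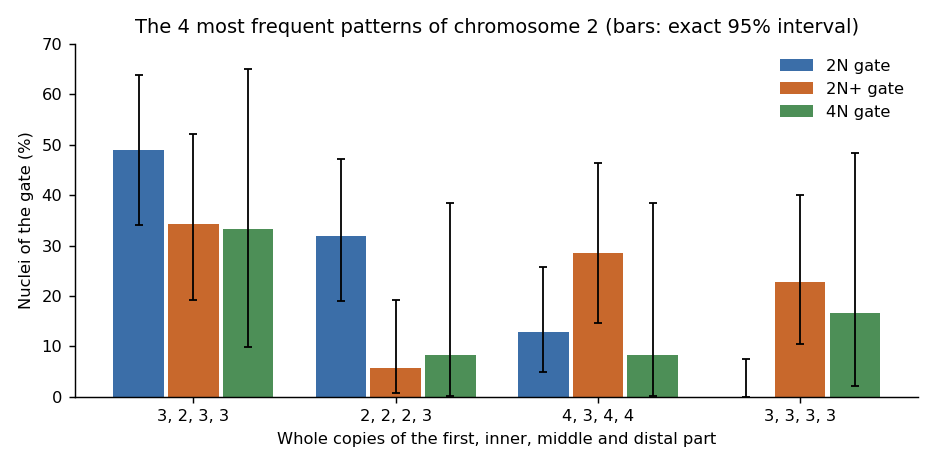
Share of the nuclei of each gate, in percent, that held each of the 4 most frequent patterns of whole copies, with exact 95% intervals as black bars. The bars for 2, 2, 2, 3 fall from 31.9% in the 2N gate to 5.71% in the 2N+ gate, and 3, 3, 3, 3 has no 2N nucleus.

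A nucleus was called inner low where its inner part was below both the first and the middle part. This held for 31 of 47 2N nuclei (66%, 50.7 to 79.1%), 22 of 35 2N+ nuclei (62.9%, 44.9 to 78.5%) and 8 of 12 4N nuclei. A nucleus with equal first, inner and middle parts below its distal part is called distal high below, a class added after the values were seen. It held 16 of 47 2N nuclei (34%, 20.9 to 49.3%), 3 of 35 2N+ nuclei (8.57%, 1.80 to 23.1%) and 1 of 12 4N nuclei. Of the 3 distal high 2N+ nuclei, 2 were among the nuclei with more than 60 changes of value, as was the distal high 4N nucleus. Without those nuclei 1 of 32 2N+ nuclei remained (3.12%, 0.0791 to 16.2%). That interval lay below the 2N one, while the interval of all 35 overlapped it. All 47 2N nuclei were either inner low or distal high. None of the 94 nuclei was low from the start, that is, equal in the first and inner part and higher from the middle part on, and none had equal inner and middle parts below both its first and its distal part.

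The size of the step in inner low nuclei was close to 1 copy. The classes were set by whole copies of these same parts, so the sizes below describe them. In the 31 2N nuclei the first part exceeded the inner part by 1.05 ± 0.0672 copies (SD; means 3.18 and 2.12), and the middle part exceeded it by 1.02 ± 0.0770. In the 22 2N+ nuclei these differences were 1.06 ± 0.126 and 0.981 ± 0.0510. The 2 flanks were at about the same level: first minus middle was 0.0319 ± 0.0812 copies for 2N nuclei, and for 2N+ nuclei 0.0830 ± 0.0946. The first part was thus slightly higher on average in both gates, by less than the SD of single nuclei. In the 16 distal high 2N nuclei the distal part exceeded the middle part by 0.946 ± 0.209 copies, and first minus inner was 0.0891 ± 0.0955.

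The step was also measured by pattern. Whole copies of these parts set the patterns, so a size near 1 copy follows from the choice. In the pattern 4, 3, 4, 4, first minus inner was 1.08 ± 0.0335 copies in 6 2N nuclei and 1.08 ± 0.162 in 10 2N+ nuclei. In the pattern 3, 2, 3, 3 it was 1.05 ± 0.0684 in 23 2N nuclei and 1.05 ± 0.0910 in 12 2N+ nuclei. The 2 patterns differ by 1 copy in every part by definition, so these values show only the spread of nuclei within each pattern.

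Ratios of parts within a nucleus need no factor. The classes were defined on the same parts, so the following values describe them. Inner over first had a median of 0.653 (SD 0.0178) in 2N nuclei at 3, 2, 3, 3 and 0.729 (SD 0.0130) in 2N nuclei at 4, 3, 4, 4. The highest value of the former was 0.708 and the lowest of the latter 0.707, so that these 2 patterns met at their edges. In distal high 2N nuclei the same ratio had a median of 0.966 and ran from 0.875 to 1.00, above all 31 inner low 2N nuclei, whose highest value was 0.741. Distal over middle had a median of 1.46 in distal high 2N nuclei, from 1.27 to 1.75, and of 1.00 in inner low ones, from 0.705 to 1.00. Inner over distal did not tell the classes apart, with medians of 0.667 in inner low and 0.671 in distal high 2N nuclei.

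**Figure D3:**
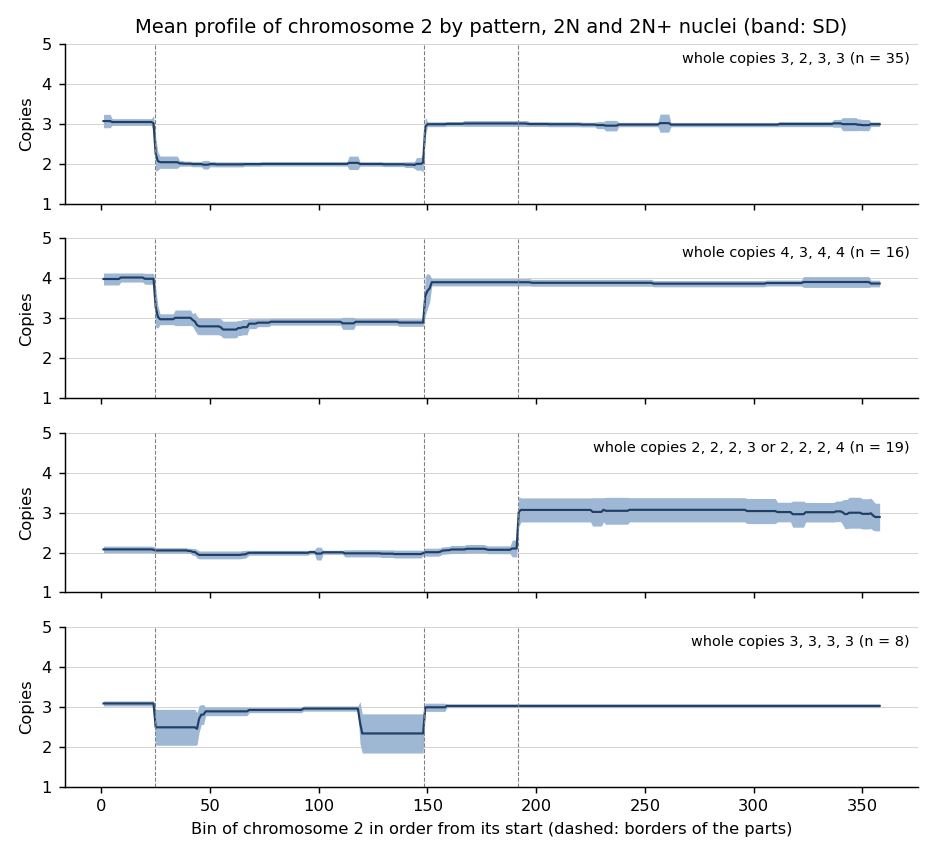
Mean copies along the 358 bins of chromosome 2 for 2N and 2N+ nuclei of each pattern, with the SD over nuclei as a band and dashed lines at the borders of the parts. The top 2 panels (35 and 16 nuclei) dip by about 1 copy over the inner part, the panel of 19 nuclei rises only at the last border, and that of 8 nuclei dips at both ends of the inner part.

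Single nuclei were then searched for steps of at least 0.5 copies within 5 bins of each border. A step down at the first border was found in 30 of 47 2N, 29 of 35 2N+ and 8 of 12 4N nuclei. A step up from the inner to the middle part was found in 31, 28 and 5 nuclei of these gates, and a step up from the middle to the distal part in 16, 3 and 2. Directions were uniform: all 64 steps at the second border and all 21 at the third went up. All 67 nuclei with a step at the first went down there, 1 2N+ nucleus with a step up close by as well. In that nucleus, 30, the fall ended a stretch from 13837815 to 14885853 at 6.69 copies, with 5.01 before it and 4.98 after. Many nuclei changed in the very same bin, 50 of 94 at the first border, 53 at the second and 18 at the third.

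Over the genome, 0.650% of 4617 borders between neighbouring autosomal bins carried such a step in 5 or more nuclei, and 0.195% in 20 or more. Chromosome 2 held 5 of the former and 2 of the latter among its 357 borders. The 5 were 14885854 (50 nuclei), 15432404 (12 nuclei, all down), 75743671 (53 nuclei), 77126311 (5 nuclei, all up) and 97908371 (18 nuclei). Position 15432404 lies 1 bin inside the inner part, and 77126311 lies 3 bins beyond it. Since the borders were chosen on these values, the counts describe how often nuclei share a position and support nothing further.

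The steps at the borders of the inner part and the step before the distal part hardly occurred together. In the 2N gate, 30 nuclei stepped down at the first border and up at the second with no step at the third, 16 stepped up at the third alone, and 1, nucleus 24, stepped up at the second alone. Nucleus 24 had its low stretch from 20562334 to 73889725, at 1.80 copies, with 2.85 and 2.79 copies on its sides. In the 2N+ gate, 28 nuclei had both steps of the inner part, 3 the third step alone, 1 (nucleus 30) the first alone and 3 none. The only nucleus of 94 with all 3 steps by copies was 4N nucleus 5, whose factor was 4.70. That it was the only one depended on the factor. 4N nucleus 1, with a factor of 2.25, also changed in value at 14885854, 76208371 and 97908371. From the middle to the distal part its ratio rose from 1.13 to 1.30, against 1.09 to 1.26 in nucleus 5. In copies the rise of nucleus 1 was from 2.55 to 2.92, too small to count as a step. Chromosome 2 carried a median of 2 steps of the size searched for per nucleus in each gate. The ranges were 1 to 6 in 2N, 0 to 8 in 2N+ and 0 to 4 in 4N nuclei.

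Counted by both steps in place of the medians, inner low covered 28 of 35 2N+ nuclei (80%, 63.1 to 91.6%) and 30 of 47 2N nuclei (63.8%, 48.5 to 77.3%). All 22 2N+ nuclei that were inner low by their medians were among the 28. The other 6 were 5 nuclei with a divided inner part, described next, and nucleus 14. In nucleus 14 the first part was at 4.06 copies, the stretch from 14885854 to 72037433 at 2.87, the stretch from 72037434 to 75743670 at 1.94 and the rest at 3.04.

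In 5 nuclei of the 2N+ gate (8, 9, 15, 19 and 26) only the 2 ends of the inner part were low. From the first border the level was 2.16 ± 0.0501 copies (SD, n = 5), then 2.92 ± 0.0308 over a stretch of 36 ± 0.550 Mb, then 1.98 ± 0.0333 up to the second border. The higher stretch began at 25296820 in nuclei 9, 15 and 26, at 25782041 in nucleus 8 and at 26745890 in nucleus 19. It ended at 61434715 in nuclei 8, 9 and 26 and at 61941332 in nuclei 15 and 19. The starts lay within 3 bins of each other and the ends within 1 bin. Because most of the inner bins fell in this stretch (72 to 75 of 124), the part medians counted these nuclei as 3, 3, 3, 3. No nucleus of the 2N or 4N gate had this arrangement. In nucleus 31 of the 2N+ gate a stretch of 2.32 Mb, from 59114014 to 61434715, stood at 2.94 copies inside a low inner part. It ended at the same bin as in nuclei 8, 9 and 26, and nucleus 31 is 1 of those with more than 60 changes of value.

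**Figure D4:**
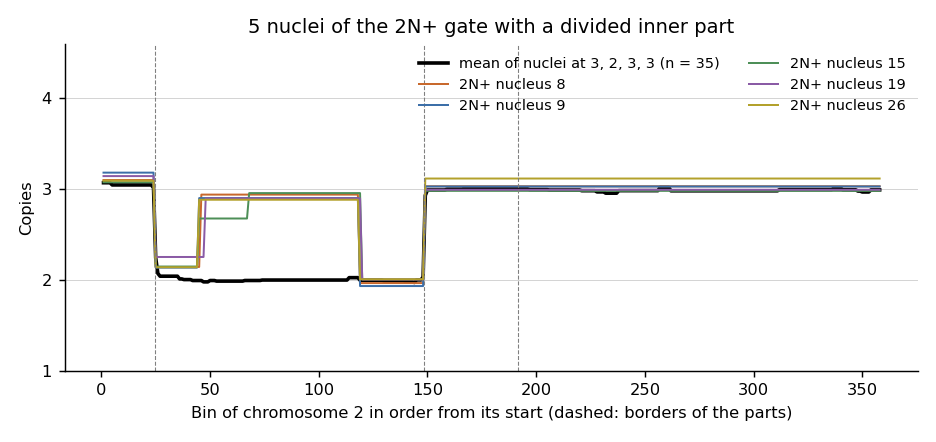
Copies along the 358 bins of chromosome 2 in the 5 2N+ nuclei with a divided inner part (coloured lines) and the mean of the 35 2N and 2N+ nuclei at 3, 2, 3, 3 (black), with dashed lines at the borders of the parts. All 5 leave and rejoin the black line at nearly the same bins.

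The 5 nuclei also matched on other chromosomes. All had 4 copies of chromosome 3 and 3 copies of chromosomes 5, 15, 16, 18 and 19 by whole-chromosome medians. This set of states was found in 6 of 35 2N+ nuclei, including these 5, and in 0 of 47 2N and 0 of 12 4N nuclei. The set was put together after the 5 nuclei were seen, and they differed from each other on chromosomes 1 and X.

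Of the other 3 2N+ nuclei at 3, 3, 3, 3, nuclei 4 and 33 held a single value along the whole chromosome, 3.0 and 2.99 copies. Nucleus 21 moved between 2.76 and 3.08 copies, with its lower stretches from 24832583 to 48558506 and from 61941333 to 80493995. Nucleus 30 was the only one at 5 in all parts, with 5.01, 4.68, 4.76 and 4.76 copies, and its autosomal ratios were among the 8 sets far from whole numbers.

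Several patterns were seen in 1 or 2 nuclei. In the 2N gate, nucleus 34 had 2.04, 1.05, 2.06 and 2.06 copies, with its steps in exactly the bins of the first and second border, and held the lowest inner part of all nuclei. Nucleus 13 of that gate had 3.17, 1.98 and 2.97 copies and stepped down to 2.09 at 105161091, inside the distal part. Nuclei 34 and 13 were the 2 2N nuclei with fewer than 3 copies of the distal part. The pattern 2, 2, 2, 4 was seen in 2N nucleus 41, at 3.81 copies of the distal part, and in 2N+ nucleus 25, at 3.98 copies. In nucleus 25 the level fell to 3.49 copies from 156587833 and to 2.79 copies from 180311999, so the distal level was lower toward the end of the chromosome.

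The 4N gate held 8 patterns among its 12 nuclei. Its means were 3.75 ± 1.30, 3.01 ± 1.14, 3.63 ± 1.21 and 3.73 ± 1.22 copies (SD), and the 4 nuclei with factors above 3 (nuclei 2 to 5) were the highest in every part. Nucleus 4 had 6.01, 4.01, 5.95 and 5.95 copies, each close to an even number, with its steps in exactly the bins of the first and second border and 2 copies in size. Nucleus 5 had 5.29, 3.86, 5.14 and 5.93 copies and all 3 steps. Nucleus 3 had 5.82 copies up to 72037433 and 5.04 copies beyond, the only nucleus whose inner part had more whole copies than its distal part. The other 8 nuclei had factors between 2.20 and 2.65.

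Among those 8, nuclei 7 and 9 were level at 3 copies by their part medians, and both had more than 60 changes of value over the genome. Nucleus 7 held a single value of 2.98 copies. Nucleus 9 fell to 2.04 copies from 40679448 to 44090852 and to 1.85 copies from 105629381 to 107083111. Its part medians passed over both falls. Nucleus 11 had 3.98, 2.87, 3.89 and 3.0 copies, with a further step, down, at 135834039 inside the distal part. Nucleus 1 had 2.70, 2.05, 2.55 and 2.92 copies, of which the first and middle part lay between whole numbers. Its part ratios lay within 0.0225 of those of the 2N bulk library at every part. None of the 47 2N nuclei lay closer to that bulk than 0.0950 at its most distant part, and none of the 35 2N+ nuclei closer than 0.0959. Nucleus 12, at 2.90, 2.15, 2.61 and 2.97 copies, lay within 0.0542. Nucleus 5, which is not among those 8, lay within 0.0715. Nuclei 1, 5 and 12 were each classed as inner low.

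The state of chromosome 2 went with the state of other chromosomes in the 2N gate. Chromosome 1 was at 3 or more copies in 3 of 16 distal high nuclei (18.8%, 4.05 to 45.6%) and in 27 of 31 inner low nuclei (87.1%, 70.2 to 96.4%). Chromosome 18 was at 3 or more in 2 of 16 distal high nuclei (12.5%, 1.55 to 38.3%) and 24 of 31 inner low nuclei (77.4%, 58.9 to 90.4%). Chromosome 15 was at 3 or more in 0 of 16 distal high nuclei (0 to 20.6%) and 12 of 31 inner low nuclei (38.7%, 21.9 to 57.8%). The intervals lay apart for these 3 of the 19 other chromosomes compared, X at 2 or more copies included, and overlapped for the others.

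**Figure D5:**
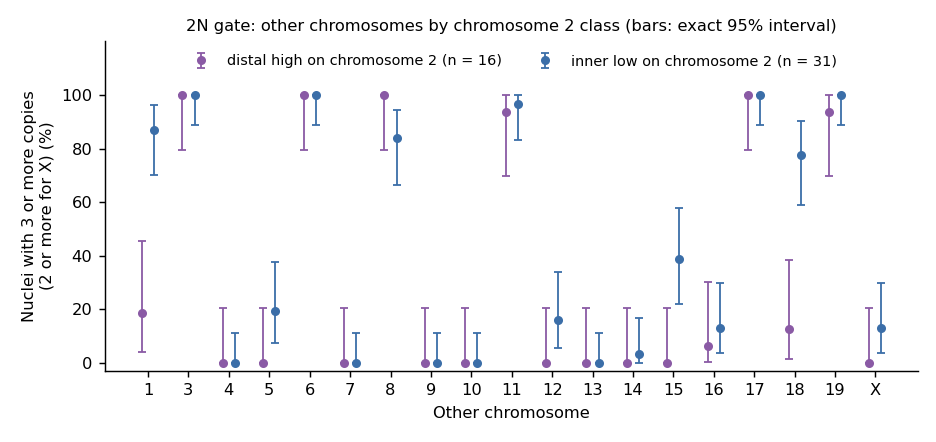
Share of 2N nuclei, in percent, with 3 or more copies of each other chromosome (2 or more for X), for the 16 distal high and the 31 inner low nuclei, with exact 95% intervals as bars. Intervals lie apart at chromosomes 1, 15 and 18.

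Chromosomes 1 and 18 were both at 2 copies in 13 of 16 distal high 2N nuclei and in 1 of 31 inner low ones. Over all gates this held for 17 of 20 distal high and 2 of 61 inner low nuclei, including all 3 distal high 2N+ nuclei. Chromosome 3 at 4 copies was found in 0 of 20 distal high nuclei, 27 of 61 inner low nuclei and 11 of the 13 nuclei of neither class. It went largely with the gate: among inner low nuclei it was seen in 20 of 22 of the 2N+ gate and 5 of 31 of the 2N gate.

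The patterns 4, 3, 4, 4 and 3, 2, 3, 3 differed on chromosomes 5, 15, 18 and 19 in the 2N gate. All 6 nuclei at 4, 3, 4, 4 had 3 copies of chromosome 5, which was at 2 copies in all 23 nuclei at 3, 2, 3, 3. All 6 also had 3 copies of chromosome 15, as did 6 of the 23. Chromosome 19 was at 4 copies in 5 of the 6 and 1 of the 23, and chromosome 18 was at 2 copies in 5 of the 6 and 1 of the 23. Among 2N+ nuclei, 3 copies of chromosome 5 were found in 6 of 10 nuclei at 4, 3, 4, 4 and 1 of 12 at 3, 2, 3, 3. Chromosome 19 had 4 copies in 2 of the 10 and 0 of the 12. Chromosome 15 was at 3 or more copies in all 10 and all 12, and chromosome 18 was at 2 copies in 2 of the 10 and 1 of the 12.

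The bulk libraries gave a reading of each gate as a whole, without a replicate. In the 2N bulk the ratios of the 4 parts were 1.18, 0.893, 1.11 and 1.30, against means over the 47 nuclei of 1.17 ± 0.219, 0.871 ± 0.116, 1.16 ± 0.214 and 1.28 ± 0.135 (SD). In the 2N+ bulk they were 1.35, 0.958, 1.29 and 1.29, against 1.32 ± 0.211, 1.02 ± 0.20, 1.28 ± 0.192 and 1.33 ± 0.184 over 35 nuclei. Along the 358 bins, the bulk profile and the mean profile of nuclei had a Pearson correlation of 0.951 for 2N and 0.971 for 2N+, given as a description since the bins share segments.

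The 2N bulk changed in value at both 14885854 and 97908371, where no 2N nucleus had steps of 0.5 copies at both. Its rise out of the inner part lay at 82094208, not at 75743671, and it held a stretch at a ratio of 1.39 from 86414549 to 88720847. The 2N+ bulk changed at 14885854 and 75743671 and had no change at 97908371. It rose to 1.42 from 168718193 to 179404446, within the distal part.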

How the data were processed

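Single nuclei and bulk samples were amplified with the SeqXE kit and sequenced after adapter ligation, per the labels' protocols. Bowtie 1.0 and the build mm9 stand in the submitters' processing notes. How the authors made bins and segments is not given in the sources used here. From their values, the deposited numbers are linear ratios of unstated denominator, with library means from 0.994 to 1.09 and equal values over runs of bins. They are not counts, so the depth is unknown and changes within a segment cannot be seen.

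The multiplier came from a grid of 1.5 to 6, spaced by 0.05, over 4636 autosomal bins, for the smallest mean squared distance to whole numbers. No 2 libraries were identical. The functions were tested on simulated data. The parts, classes and gene list were chosen with earlier results of these data known. Nuclei are named where a pattern occurred in 1 to 3 nuclei or where they held the lowest or highest copies of a part in their gate; nuclei named for their steps, for a divided inner part, for a level chromosome or for closeness to the bulk, and the distal high class, were chosen after their values were seen. Nuclei of 1 culture are not replicates, so no test was made. Alternatives were other multipliers, part means, trimmed parts, nuclei left out, other class rules and other step sizes. Genes were named by a fixed list from a table of assembly GRCm38.p6, without coordinates. Scripts ran in Python 3.11.15 with pandas 2.3.3, numpy 2.4.6, matplotlib 3.10.9 and scipy 1.17.1.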

Additional observations from a re-analysis of the deposited data

How the results depend on the processing

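For 65 results, 379 values were recomputed under an alternative, without scoring changes in the order of gates. Of the 379, 366 stayed within the interval or spread of the reported value, or within 1.5 times a count. The other 13 were these. Without the nuclei of more than 60 changes of value, a step from the middle to the distal part was found in 1 2N+ and 1 4N nucleus, distal high and level nuclei both fell to 0% of the 4N gate, and first and middle parts at 3 or more copies each rose to 100% of it. Fewer nuclei enter that count by construction. With the multiplier limited to 2.0 to 3.0, or with chromosomes 4, 7, 9, 10 and 13 set to 2 copies, 0% of 4N nuclei had 4 or more copies of the distal part, since both choices give the 4N nuclei with high factors lower ones. Steps at exactly the border were found in 4, 3 and 1 4N nuclei at the 3 borders. Of 3 alternatives chosen after seeing the data, inner low by steps at both borders gave 80% of 2N+ nuclei, level by the lack of a step at any border gave 8.57% of 2N+ nuclei, and counting divided inner parts as low kept the inner share within its interval. No paired analysis was possible because a replicate number merely names a nucleus and the report holds no test. Ratios without counts give no depth, so steps under the smallest segment and the error of a single nucleus are unknown.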

Other observations

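Within the inner part, some nuclei had a shallow lower stretch, chosen for this measure after it was seen in the profiles. The level from 25 to 35 Mb was at least 0.1 copies below that of the inner bins before 60 Mb and outside 22 to 38 Mb in 11 of 47 2N nuclei, in 5 of 29 2N+ nuclei and in 1 of 12 4N nuclei. It was higher by as much in 0, 1 and 0 nuclei. No nucleus was lower by 0.5 copies, and the lowest difference was -0.41 copies, in a 2N+ nucleus. By class it was found in 9 of 60 inner low and 7 of 20 distal high nuclei. The 5 2N+ nuclei with a divided inner part and 2N+ nucleus 31, which is inner low, were left out of these counts. Neither bulk library showed a difference there.

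Near the end of the chromosome, steps of at least 0.5 copies recurred at 179404447 in 4 nuclei (1 2N and 3 2N+), of which 2 went down and 2 went up. The 2 that went up were 2N+ nuclei 24 and 31, both with more than 60 changes of value. The 2N+ bulk changed in the same bin, from a ratio of 1.42 to 1.21, and so did 4N nucleus 1, from 2.92 to 2.60 copies.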
